A study of Mus musculus with 9 samples.

Results

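Mouse uterus that had received culture medium of developmentally competent human embryos was compared with uterus that had received unconditioned embryo culture medium, using 6 of the 9 RNA sequencing libraries of the series (n = 3 per group). All animals were C57BL/6 females of 25 days by the labels, although the design text also gives 21 days. All had received progesterone (1 mg, 1 dose) and estradiol (10 mg/kg per day) over 3 days, so the controls carry the same hormone treatment. Each horn then received 50 µl of fluid: fresh embryo culture medium in the control group, or medium pooled from 9 competent embryos in the competent group. In the third group, described here only by its values, the horns received medium pooled from 18 arrested embryos. The host is a mouse, the embryos are human and each conditioned medium is a pool. The sources used here do not give the time from injection to collection. Whether each library is a different animal is not stated in the labels. The p-values therefore measure only how much these samples vary, and that variation may be technical.

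Gene values were sums of deposited FPKM, a read density scaled to transcript length and library size, over the annotated transcripts of each gene. Of 35934 annotated genes, 13199 averaged 1 FPKM or more in the 6 libraries and were compared, and 11760 of these code for protein. Differences are given as competent minus control on the scale of log2(FPKM + 1) ± SE, a scale that understates the change of genes of low FPKM. The test was limma with Benjamini-Hochberg adjustment over the 13199 genes. At an adjusted p under 0.05, 3 genes rose (0.0227%) and 7 fell (0.053%), together 0.0758%. At an unadjusted p under 0.05, 497 genes were higher (3.77%) and 579 lower (4.39%), together 8.15%. In 903 genes (6.84%) all 3 competent libraries exceeded all 3 controls, and in 1080 genes (8.18%) all 3 lay below them. These shares are the background against which the members of a gene list are counted below. Over all genes tested, 48.4% were higher and 51.6% lower, with a median difference of -0.01.

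The uterine lining of the mouse grows under estradiol and progesterone: estradiol drives division of the epithelium, and progesterone with estradiol moves division to the stroma before an embryo can implant. A dividing cell switches on its genes in order. Cyclins and E2F factors open the cycle, replication genes copy the DNA, and a later wave led by FOXM1 and the MuvB complexes supplies the kinases, spindle and kinetochore parts of mitosis. That late wave depends largely on CCAAT boxes, bound by NF-Y, and on the cell cycle homology region TTTGAA in the proximal promoter.

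Coverage was mostly higher in the competent libraries. Depth in reads is unknown, because the files give FPKM and coverage. Coverage over annotated transcripts amounted to 1077 to 1468 Mb in the controls and 1434 to 1972 Mb in the competent libraries, and coverage per FPKM to 1.09 to 1.5 and 1.47 to 1.98. The part of this difference in coverage in the results was not tested. Control library 3 was the outermost sample of a principal component analysis, with -76.5 on component 1 (25.2% of variance) against -6.96 to 46.5 for the other 5. Median-ratio size factors ranged from 0.999 to 1.02. Zeros need care: 1895 tested genes (14.4%) had a 0 in 1 or more of the libraries. They include Rpl7a, a ribosomal protein gene that every cell uses, listed at 0 in every competent library. Its difference did not pass the adjusted threshold. A value of 0 is therefore reported as listed at 0, without a fold change.

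Promoters of 8 division genes are shown because the values of these genes are described next. The sequences are the bases just upstream of the annotated start, up to 200, on the strand of the gene, from the mouse genome NCBIM37 (mm9). Capitals mark CCAAT and TTTGAA on either strand (ATTGG and TTCAAA are the same motifs read on the other strand). The stretch of Cdk1 is shorter because 28 exon bases of another of its transcripts were left out.
Cdk1, chr10:68815687-68815858, minus strand: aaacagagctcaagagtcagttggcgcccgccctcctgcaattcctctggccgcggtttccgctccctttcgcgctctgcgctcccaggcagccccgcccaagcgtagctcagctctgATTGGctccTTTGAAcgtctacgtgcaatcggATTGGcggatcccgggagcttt
Ccnb2, chr9:70269362-70269561, minus strand: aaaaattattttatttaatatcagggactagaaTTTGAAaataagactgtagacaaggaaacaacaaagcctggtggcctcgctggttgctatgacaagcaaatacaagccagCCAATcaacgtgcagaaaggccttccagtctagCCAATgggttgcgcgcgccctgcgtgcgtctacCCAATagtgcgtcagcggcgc
Cdc20, chr4:118109958-118110157, minus strand: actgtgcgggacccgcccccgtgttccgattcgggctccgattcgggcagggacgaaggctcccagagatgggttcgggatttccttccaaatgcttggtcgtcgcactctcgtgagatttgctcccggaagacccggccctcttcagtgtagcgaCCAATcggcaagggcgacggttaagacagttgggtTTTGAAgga
Top2a, chr11:98885504-98885703, minus strand: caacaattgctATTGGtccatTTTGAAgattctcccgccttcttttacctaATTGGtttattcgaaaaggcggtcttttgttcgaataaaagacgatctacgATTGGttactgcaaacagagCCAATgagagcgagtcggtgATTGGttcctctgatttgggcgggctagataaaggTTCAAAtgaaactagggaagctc
Plk1, chr7:129302751-129302950, plus strand: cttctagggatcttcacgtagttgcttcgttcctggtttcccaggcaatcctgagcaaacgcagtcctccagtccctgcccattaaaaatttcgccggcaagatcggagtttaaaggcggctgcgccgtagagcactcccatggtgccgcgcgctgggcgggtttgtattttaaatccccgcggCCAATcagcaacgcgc
Birc5, chr11:117710365-117710564, plus strand: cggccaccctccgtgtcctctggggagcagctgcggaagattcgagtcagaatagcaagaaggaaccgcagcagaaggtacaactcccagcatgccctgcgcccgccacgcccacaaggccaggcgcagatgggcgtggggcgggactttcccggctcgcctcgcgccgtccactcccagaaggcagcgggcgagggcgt
Rrm2, chr12:25392906-25393105, plus strand: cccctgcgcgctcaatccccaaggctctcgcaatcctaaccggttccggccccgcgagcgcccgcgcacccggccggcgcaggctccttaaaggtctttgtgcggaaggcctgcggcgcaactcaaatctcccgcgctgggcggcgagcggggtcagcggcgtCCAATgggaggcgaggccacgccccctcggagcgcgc
Ccna2, chr3:36471073-36471272, minus strand: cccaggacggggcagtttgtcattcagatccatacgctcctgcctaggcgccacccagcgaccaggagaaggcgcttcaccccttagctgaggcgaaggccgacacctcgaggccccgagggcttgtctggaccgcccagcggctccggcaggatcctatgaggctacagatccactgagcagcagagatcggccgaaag
Ccnb2 carries 3 CCAAT motifs and 1 TTTGAA in this stretch, Top2a 5 and 2, Cdk1 2 and 1, Cdc20 1 of each, and Plk1 and Rrm2 1 CCAAT each, whereas neither run of letters occurs in those of Ccna2 and Birc5. In the 250 bases upstream of the start, CCAAT occurs in 57.9% of the 159 cell cycle genes tested and in 35% of 13198 genes tested, and TTTGAA in 21.4% and 12.6%. Both occur together in 17.6% of the cell cycle genes and in 4.55% of all. The share with both was 29.6% of 27 kinetochore, centromere and condensin genes, 26.9% of 26 spindle genes, 22.2% of 18 nucleotide supply genes, 15.4% of 13 anaphase genes, 13.3% of 15 mitotic kinase genes, 12.5% of 24 cyclin and CDK genes and 5.56% of 36 replication genes. It was 0 of 44 ribosomal protein genes. The lists of mitosis and of S phase thus interleave in this order. The E2F-type motifs TTTGGCGC and TTTCCCGC occur in 11.1% and 13.9% of the replication genes and in 0.72% and 1.45% of all genes. A match of letters is a description and not a binding site.

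Genes of the cell division cycle were higher after competent embryo medium than after unconditioned medium. The list medians were 0.97 to 1.04 for the kinases, spindle and kinetochore of mitosis and 0.40 for DNA replication. Of 174 genes in 7 cell cycle lists, 170 were found in the annotation and 159 were tested. In 148 of the 159 the mean was higher in the competent group, with a median difference of 0.79. Unadjusted p was under 0.05 in 73 higher and 2 lower members (45.9% higher, against 3.77% of all genes), and 89 were higher without overlap of the groups (56.0%, against 6.84%). Only Tk1 passed the adjusted threshold. Of the 11 members below the filter, 4 were higher, 2 lower and 5 at 0 in all 6 libraries. Of the 159, 19 had a control mean under 1 FPKM and passed the filter through the competent libraries alone, Tk1 among them. The counts of 73 and 89 and the list medians include these 19. Among the 140 with a control mean of at least 1 FPKM, 129 were higher, with a median of 0.71.

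**Figure D1:**
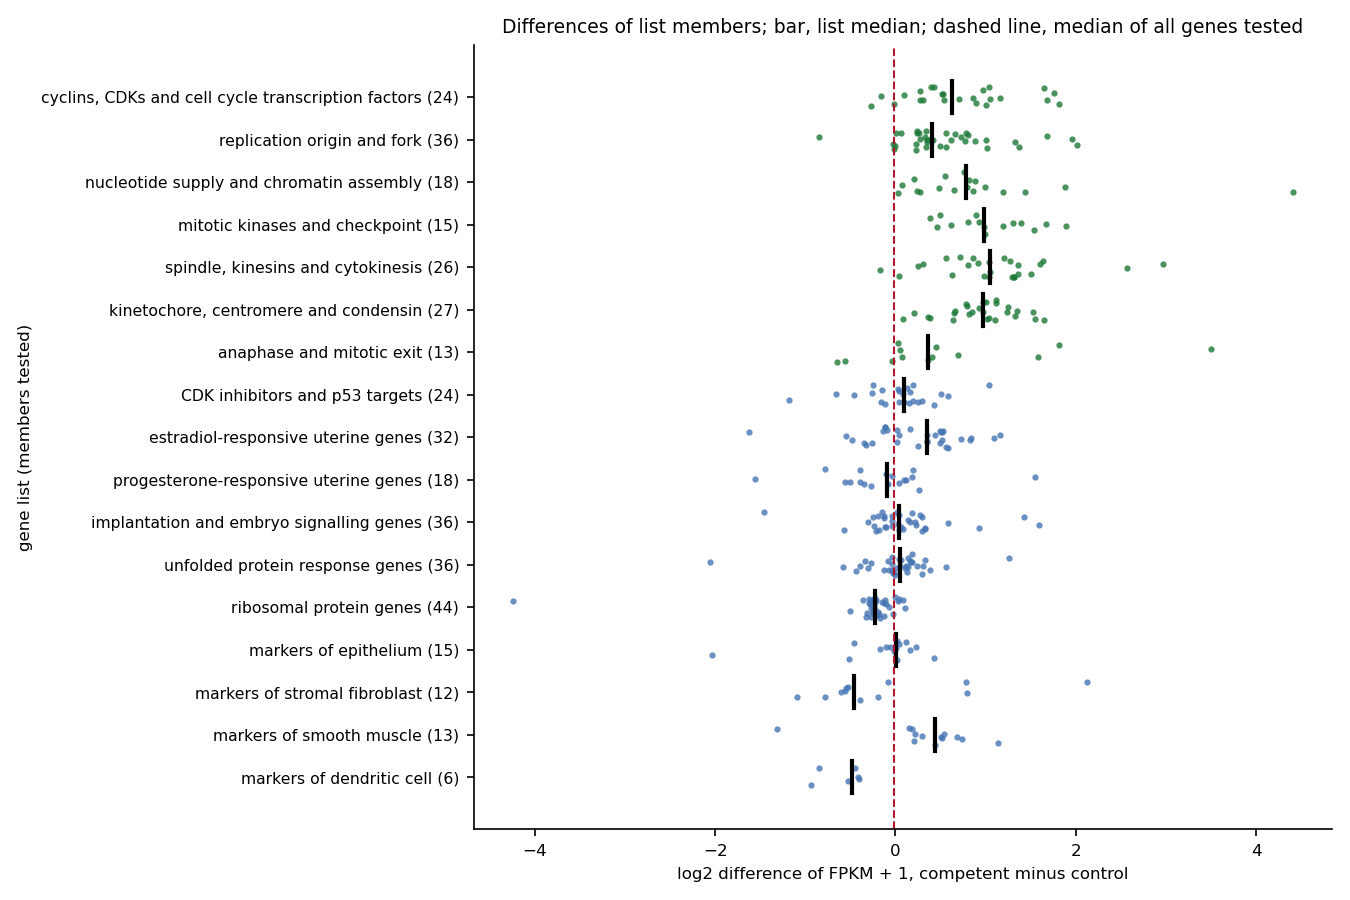
Each point is the log2 difference of FPKM + 1 (competent minus control) of a tested member of a gene list, with the number of members tested in parentheses, the list median as a bar and the median of all genes tested (-0.01) as a dashed line. The spindle, kinetochore and mitotic kinase lists have medians of 1.04, 0.97 and 0.98, the replication list of 0.40 and the ribosomal protein list of -0.23.

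Among the kinase and cyclins that carry a cell into mitosis, Cdk1, Ccna2 and Ccnb2 kept the groups apart, and Ccnb1 did not. Cdk1, the mitotic cyclin-dependent kinase (chr10:68799383-68815686), stood at 21.2, 29.1 and 20.3 FPKM in the controls and 55.0, 85.3 and 88.6 in the competent libraries. Its difference was 1.64 ± 0.24 (limma adjusted p = 0.19). Every competent library lay above every control, and competent library 1 was the lowest of its group. Ccna2, the cyclin of S phase and G2, stood at 4.96, 5.04 and 3.00 FPKM against 11.4, 16.5 and 24.9 (difference 1.76 ± 0.32, limma adjusted p = 0.35). Ccnb2, a cyclin of CDK1 in mitosis, stood at 7.16, 3.51 and 5.98 against 13.9, 19.6 and 26.5 (1.68 ± 0.32, limma adjusted p = 0.38). Both keep the groups apart, again with competent library 1 lowest. Foxm1, the transcription factor of the late wave, was low throughout, at 0.24, 0.19 and 1.15 FPKM in the controls and 1.35, 1.70 and 4.60 in the competent libraries. Ccnb1 overlapped between groups, at 9.25, 6.68 and 9.75 against 16.3, 9.62 and 33.8. The overlap rests on competent library 2, where its transcript ENSMUST00000142056 was listed at 0, against 11.3 and 21.1 in the other competent libraries. The G1 cyclin Ccnd1 also overlapped, at 36.9, 40.5 and 26.4 against 53.6, 56.9 and 39.0. In the list of cyclins, CDKs and their transcription factors 21 of 24 were higher, 8 at an unadjusted p under 0.05, with a median of 0.62. Ccnd2, Cdk4 and Mybl2 were not, with differences of -0.02, -0.16 and -0.27.

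**Figure D2:**
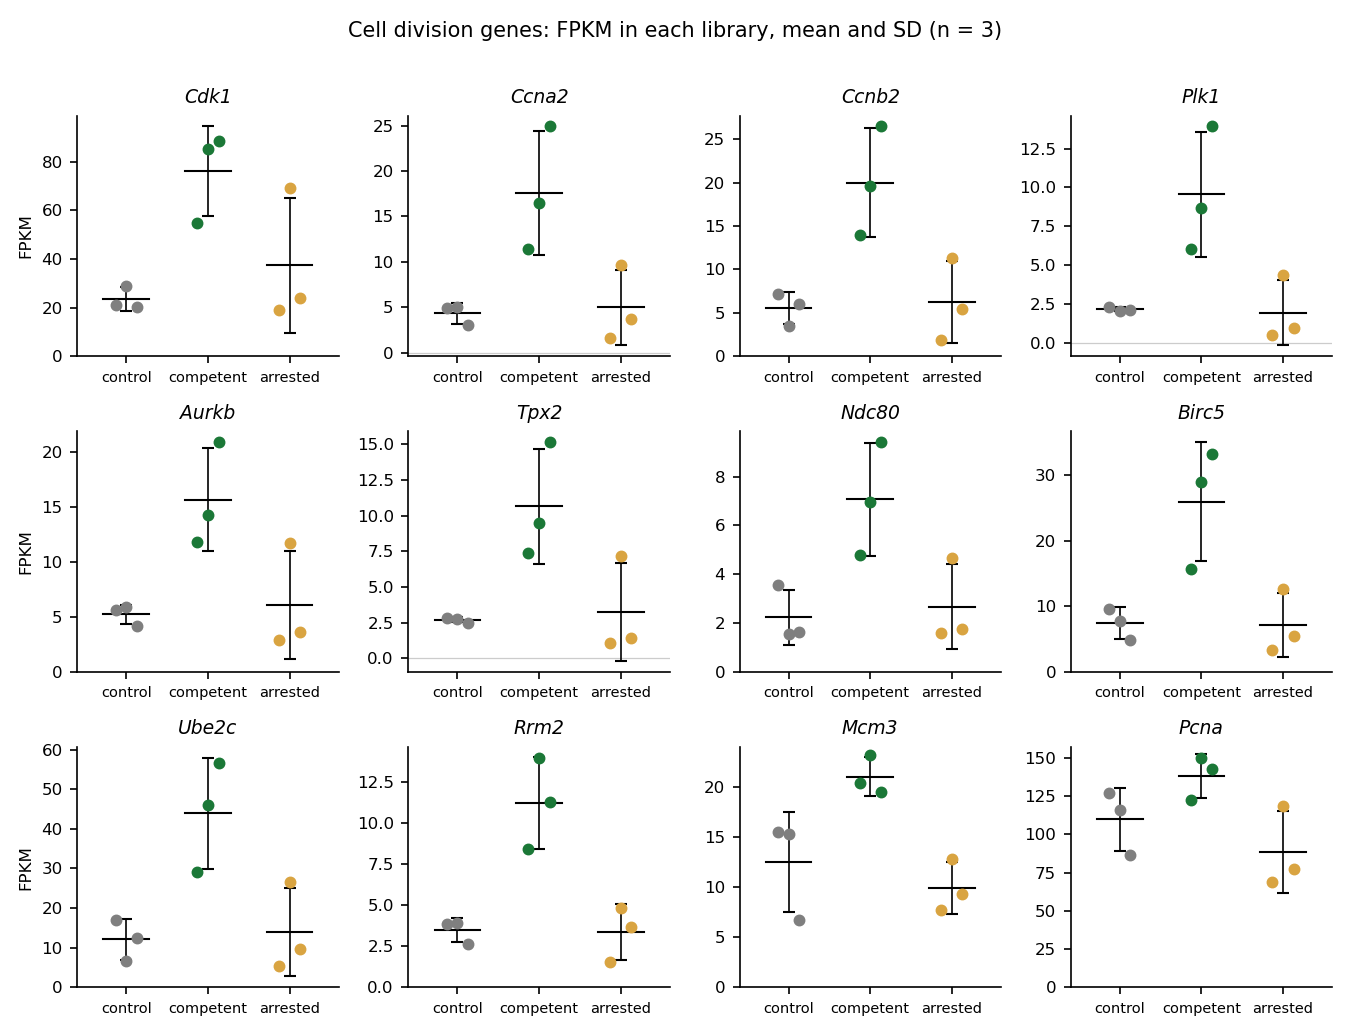
FPKM of 12 division genes in each library (points), with the mean (bar) and SD (whiskers) of 3 libraries for the control, competent and arrested groups; each panel has its own axis. The competent and control points do not overlap in 11 of the panels and overlap in that of Pcna.

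Replication genes differed by less. The list of origin and fork genes had 32 of 36 members higher but only 4 at an unadjusted p under 0.05, with a median of 0.40. On FPKM, 12 were higher without overlap of the groups (33.3%, against 6.84% of all genes). By exon coverage, a gene measure defined further on, all 36 were higher, with a median of 0.49. At an unadjusted p under 0.05 by limma stood 17 of them by that measure (4.76% of all genes). Subunits of the MCM helicase, which unwinds DNA at the fork, illustrate this. Mcm3 stood at 15.6, 15.3 and 6.77 FPKM in the controls and 20.4, 23.2 and 19.5 in the competent libraries (0.78 ± 0.32, limma adjusted p = 0.61). Mcm6 stood at 27.8, 26.3 and 18.2 against 32.5, 34.4 and 34.8. Control library 3 was the lowest control for both, and for 28 of the 36 members of the list. Leaving out control library 1, 2 or 3 gave 8, 11 or 6 members at an unadjusted p under 0.05, and leaving out competent library 1, 2 or 3 gave 6, 1 or 2. The median without control library 3 was 0.29. Pcna, the clamp that holds polymerase on DNA, overlapped between groups, at 127, 116 and 86.6 against 122, 150 and 143. Gmnn, the inhibitor of origin licensing, stood at 11.2, 9.51 and 6.91 against 15.1, 23.3 and 20.4 (1.01 ± 0.23). Lig1, the ligase of Okazaki fragments, stood at 26.8, 25.5 and 9.74 against 35.3, 54.8 and 66.4. Tipin, a fork protection factor, had the lowest difference on FPKM, -0.85, but no tested member of the list was lower by exon coverage.

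Nucleotide supply and chromatin assembly genes were higher in all 18 tested, 11 of them at an unadjusted p under 0.05, with a median of 0.78. Tk1, the thymidine kinase of S phase (ENSMUSG00000025574, chr11:117676840-117687406), was listed at 0 in the 3 controls and stood at 15.5, 21.7 and 24.5 FPKM in the competent libraries (limma adjusted p = 0.0078). Its exon coverage, defined further on, was also 0 in the controls and 5.70 ± 1.27 in the competent group (mean ± SD, n = 3). Rrm2, the regulated subunit of ribonucleotide reductase, stood at 3.86, 3.90 and 2.62 FPKM against 8.38, 13.9 and 11.3 (1.44 ± 0.24, limma adjusted p = 0.29). H2afx, the histone variant marked at DNA breaks, stood at 12.5, 13.7 and 12.1 against 22.7, 27.9 and 28.8 (0.99 ± 0.14, limma adjusted p = 0.16). Neither pair of groups overlapped. Uhrf1, which keeps DNA methylation through replication, stood at 7.25, 7.11 and 3.34 against 12.8, 15.6 and 14.1. Top2a, the topoisomerase that untangles replicated DNA, stood at 8.59, 11.4 and 3.69 against 15.9, 33.6 and 22 (1.53 ± 0.44, limma adjusted p = 0.56), without overlap. Lmnb1, a lamin of the nuclear envelope, stood at 22, 23.2 and 16.5 against 31.5, 42.2 and 42.1.

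Mitotic kinases, the spindle and the kinetochore had the highest medians of the 7 lists on the scale used, although with a pseudocount of 5 the nucleotide supply list (0.58) lay above the kinases (0.53) and the kinetochore (0.55). All 15 kinase and checkpoint genes were higher, 11 at an unadjusted p under 0.05, with a median of 0.98. Plk1, the polo-like kinase of mitotic entry and spindle assembly, stood at 2.30, 2.07 and 2.12 FPKM in the controls and 6.05, 8.67 and 13.9 in the competent libraries (1.67 ± 0.30, limma adjusted p = 0.33). The controls lie close together, whereas the competent libraries are spread. The spindle checkpoint kinase Bub1b stood at 4.08, 3.97 and 5.12 against 8.63, 10.9 and 15.1, and Mad2l1, the checkpoint inhibitor of CDC20, at 22.9, 22.2 and 12.1 against 31.2, 38.9 and 43.0. Neither overlapped. Chek1, a kinase of the DNA damage checkpoint, did overlap, at 1.69, 2.11 and 0.89 against 2.24, 3.55 and 1.96.

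The chromosomal passenger complex, which corrects attachments at the centromere, was higher in its 4 subunits. Aurkb, its kinase, stood at 5.58, 5.86 and 4.17 FPKM against 11.8, 14.3 and 20.9 (1.40 ± 0.24, limma adjusted p = 0.33). Birc5, known as survivin, stood at 9.61, 7.80 and 4.90 against 15.7, 28.9 and 33.2, and the scaffold Incenp at 4.09, 3.44 and 6.52 against 8.76, 8.21 and 14.4. The fourth, Cdca8, stood at 4.95, 5.18 and 3.74 against 8.67, 8.67 and 17.9, so that no subunit overlapped between groups. The 4 subunits of the NDC80 complex, which grips the microtubule end, were likewise apart. Ndc80 stood at 3.54, 1.56 and 1.61 against 4.81, 6.98 and 9.44. Nuf2 stood at 2.30, 2.30 and 1.73 against 4.19, 6.67 and 8.85. Differences of the other two, Spc24 and Spc25, were 1.35 ± 0.26 and 1.01 ± 0.22. All 27 kinetochore, centromere and condensin genes tested were higher, 20 at an unadjusted p under 0.05, with a median of 0.97.

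Among 26 spindle, kinesin and cytokinesis genes 25 were higher, 15 at an unadjusted p under 0.05, with a median of 1.04. Stmn1, which destabilises microtubules, stood at 66.2, 64.0 and 75.5 FPKM in the controls and 139, 128 and 160 in the competent libraries (1.04 ± 0.12, limma adjusted p = 0.098). Anln, the anillin of the contractile ring, stood at 1.90, 1.92 and 1.72 against 4.74, 5.32 and 4.54 (1.04 ± 0.17, limma adjusted p = 0.29). Tpx2, a spindle assembly factor, stood at 2.83, 2.77 and 2.5 against 7.36, 9.51 and 15.2 (1.60 ± 0.27, limma adjusted p = 0.30). These 3 genes had tight controls and no overlap. The motor Kif11 stood at 2.26, 1.72 and 1.76 against 4.17, 6.02 and 7.30. The chromokinesin Kif22 was listed at 0.66, 0 and 0 in the controls and 6.42, 7.87 and 11 in the competent libraries (limma adjusted p = 0.083).

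Genes of anaphase and mitotic exit were mixed. Of 13 tested, 10 were higher, 4 of them at an unadjusted p under 0.05, and 2 were lower at that level, with a median of 0.36. The median became -0.03 without control library 3 and 0.15 without competent library 2, and without competent library 3 only 2 higher members were at that level. Ube2c, the ubiquitin-conjugating enzyme of the anaphase-promoting complex, stood at 17.1, 6.76 and 12.5 FPKM against 29.0, 46.1 and 56.7 (1.81 ± 0.39, limma adjusted p = 0.44). Cdc20, an activator of that complex, was listed at 5.95, 0 and 0 in the controls and 15.2, 20.5 and 27.5 in the competent libraries. The 2 exceptions lay below the controls without overlap. Pttg1, the securin that CDC20 targets, stood at 59.9, 51.2 and 55.6 against 42.8, 33.0 and 30.3 (-0.65 ± 0.15, limma adjusted p = 0.48). Cdc23, a subunit of the complex, stood at 28.9, 20.0 and 24.8 against 14.7, 17.9 and 16.

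Inhibitors of the cycle had no common direction. Of 24 CDK inhibitor and p53 target genes 16 were higher, with a median of 0.09. Only 1 reached an unadjusted p under 0.05 (4.17%, against 3.77% of all genes higher at that level). That gene was Cdkn1a, the p21 inhibitor, at 7.15, 8.24 and 10.4 FPKM in the controls and 14.2, 11.6 and 11.9 in the competent libraries (0.51 ± 0.17, limma adjusted p = 0.59). By exon coverage, defined further on, 14 of the 24 were higher. At an unadjusted p under 0.05 by that measure stood 4 higher (4.76% of all genes) and 0 lower members. Mki67, the proliferation marker Ki-67, stood at 1.75, 3.30 and 1.58 against 5.98, 4.73 and 18.1, with 1 competent library far above the other two.

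The order of libraries within the groups was shared by many of these genes. Competent library 1 was the lowest of its group in 102 of the 159 cell cycle genes, competent library 3 the highest in 88, and control library 3 the lowest control in 92. The median deviation of the 159 genes from the mean of the 6 libraries was -0.20, -0.31 and -0.62 in control libraries 1 to 3 and 0.16, 0.47 and 0.55 in competent libraries 1 to 3. In arrested libraries 1 to 3 it was -0.66, 0.05 and -0.60, and arrested library 2 was the highest of its group in 111 of the 159. Without control library 3, 137 of 159 genes were higher, 64 at an unadjusted p under 0.05, with a median of 0.62. Without competent library 1 there were 77 at that level, with a median of 0.92. In bulk tissue, more dividing cells and more RNA of these genes per cell cannot be told apart. Smooth muscle markers shared part of this order: their summed FPKM was 3150, 3323 and 3313 in the controls and 2708, 5599 and 4268 in the competent libraries, 12 of 13 tested had a higher mean, and competent library 1 was the lowest of its group in 12. Their median of 0.44 became 0.68 without competent library 1 and 0.22 without competent library 2. Mylk was listed at 0 in 1 control and 2 competent libraries, and Myocd, below the filter, in 1 competent library. In competent library 1 the summed muscle markers lay below the controls and the cell cycle median lay above every control. The part of smooth muscle in the cell cycle result was not tested.

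**Figure D3:**
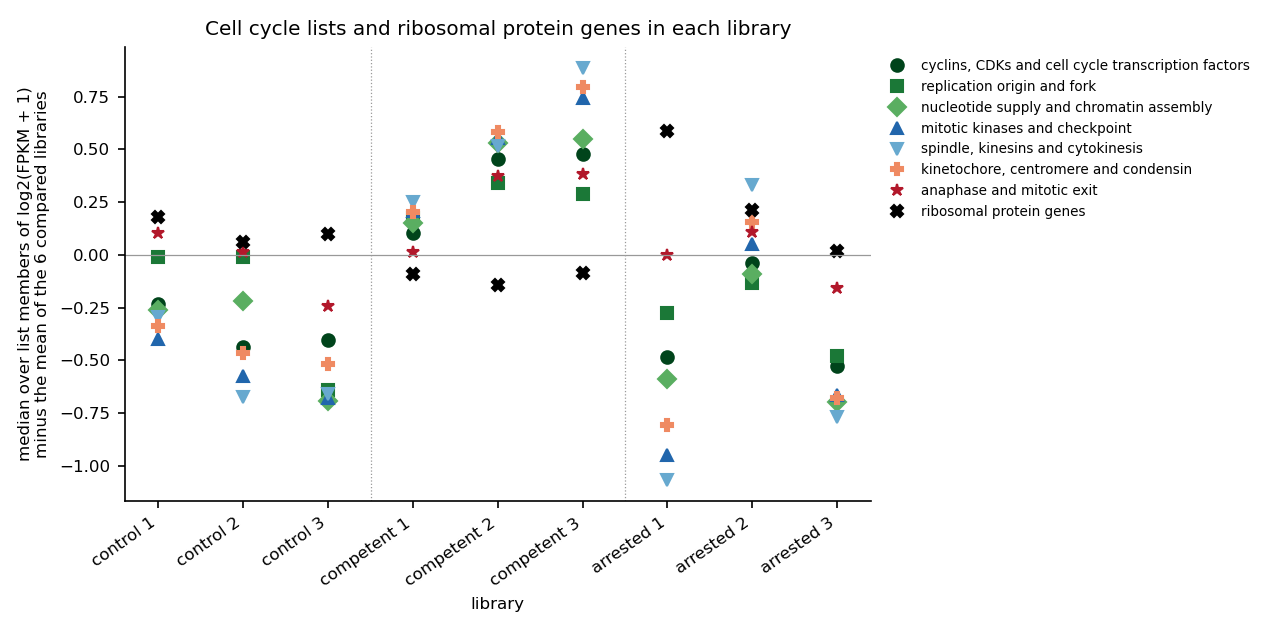
Median over the tested members of each list of log2(FPKM + 1) minus the mean of the 6 compared libraries (vertical axis), for each of the 9 libraries (horizontal axis); symbols are the 7 cell cycle lists and the ribosomal protein list. The 3 competent libraries lie at or above 0 for the 7 cell cycle lists and below 0 for ribosomal proteins, and arrested library 2 lies above the other arrested libraries for the 7 lists.

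Because transcript estimates can pass reads from one transcript to another, gene values were also computed as exon coverage: coverage times length over all transcripts of a gene, those assembled in a library included, divided by the gene's exon length and put in FPKM units. This alternative was chosen after seeing the data. For the cell cycle genes it gave a like picture. By exon coverage 151 of the 159 were higher, with a median of 0.78, and 101 higher and 3 lower members had an unadjusted p under 0.05 (against 4.76% and 5.81% of all genes). In 114 members (7.77% of all genes) the competent libraries lay above the controls without overlap by this measure. Of the 73 higher members at that level by FPKM, 68 were also at it by exon coverage.

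Among the 10 genes past the adjusted threshold, 3 fell with all 6 libraries above 0. Pex19, the receptor that brings membrane proteins to the peroxisome (ENSMUSG00000003464, chr1:174056886-174066624), stood at 120, 112 and 119 FPKM in the controls and 34.7, 33.6 and 34.5 in the competent libraries (-1.74 ± 0.08, limma adjusted p = 0.0078). Acaa1a, the peroxisomal thiolase of fatty acid oxidation (ENSMUSG00000036138, chr9:119250412-119259413), stood at 42.1, 45.5 and 49.3 against 10.4, 12.5 and 9.26 (-2.0 ± 0.14, limma adjusted p = 0.019). Ubl4, a ubiquitin-like protein that helps insert tail-anchored proteins (ENSMUSG00000015290, chrX:71611057-71614012), stood at 74.8, 71.0 and 88.0 against 25.1, 21.7 and 24.8 (-1.66 ± 0.12, limma adjusted p = 0.019). The groups are far apart on FPKM in all 3 genes, but the exon coverage differences were smaller. Exon coverage was 25.4 ± 2.70 in the controls and 23.1 ± 0.30 in the competent group for Pex19, and 44.0 ± 3.47 and 42.7 ± 2.22 for Acaa1a. For Ubl4 it was 26.7 ± 0.54 and 20.8 ± 1.61, lower without overlap, with a difference of -0.35 against -1.66 on FPKM.

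In Pex19 and Ubl4 the transcripts show where the FPKM difference lies. For Acaa1a they do not, because ENSMUST00000039784 held 100% of its FPKM in both groups. In Pex19 the transcript ENSMUST00000133546 stood at 88.4, 71.9 and 89.2 FPKM in the controls and was listed at 0 in the competent libraries, whereas ENSMUST00000075895 stood at 31.7, 33.2 and 29.3 against 34.7, 33.6 and 34.5. In Ubl4 it was ENSMUST00000125914, at 51.7, 48.4 and 50.9 against 0. The same pattern recurred in Tor2a, a torsin ATPase of the endoplasmic reticulum, whose ENSMUST00000123624 stood at 66.1, 67.4 and 93.5 against 0. Its gene sum was 93.0, 94.8 and 124 against 32.5, 30.1 and 22.6 (-1.84 ± 0.19, limma adjusted p = 0.081). In the other direction Gtpbp8, a GTP-binding protein gene, stood at 6.58, 7.23 and 5.28 against 23.3, 20.6 and 18.1 (1.56 ± 0.17, limma adjusted p = 0.083), with ENSMUST00000162479 at 0 in the controls and 17.8, 15.3 and 15.1 in the competent libraries. Exon coverage of Gtpbp8 was 7.19 ± 2.18 and 7.11 ± 1.53. Exon coverage of Tor2a was 18.1 ± 2.42 and 12.4 ± 1.03, lower without overlap but by -0.50. For Pex19, Acaa1a and Gtpbp8 the coverage differences were -0.13, -0.04 and 0.00, so the FPKM difference was not seen in coverage, while Ubl4 and Tor2a kept its direction at a smaller size.

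**Figure D4:**
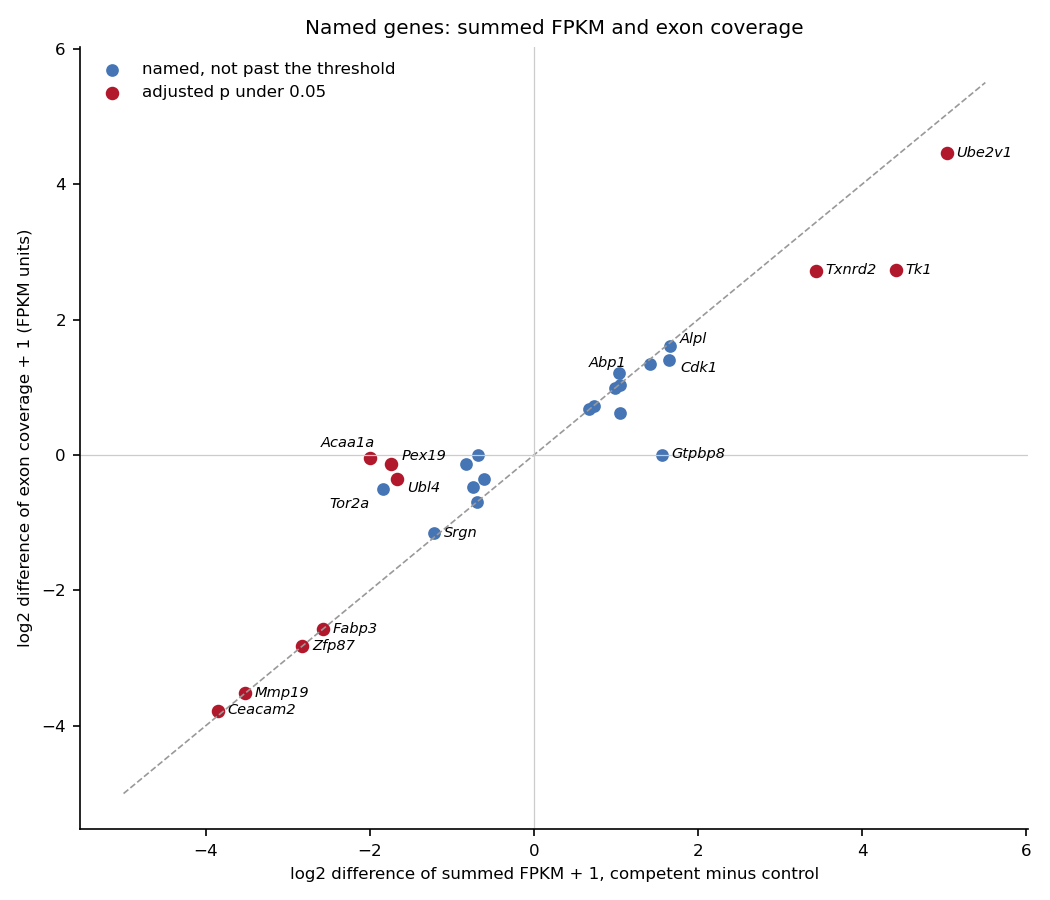
Log2 difference (competent minus control) of exon coverage + 1 in FPKM units (vertical axis) against that of summed FPKM + 1 (horizontal axis) for the called and named genes; the dashed line marks equal differences. Pex19, Acaa1a and Gtpbp8 lie near 0 in coverage and Ubl4 lies at -0.35, whereas Abp1, Alpl, Cdk1 and Srgn lie near the line.

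The other 7 genes past the threshold were listed at 0 throughout a group. Besides Tk1, Txnrd2, the mitochondrial thioredoxin reductase (ENSMUSG00000075704), was listed at 0 in the controls and stood at 10.1, 9.04 and 10.4 FPKM in the competent libraries (limma adjusted p = 0.0078). The value of Txnrd2 is uncertain, because the sources used here do not say whether strand was used in quantification. Ube2v1, a ubiquitin-conjugating enzyme variant (ENSMUSG00000078923), went from 0 to 20.8, 38.4 and 39.4 (limma adjusted p = 0.0078), while Tmem189, which overlaps it on the same strand, stood at 27.3, 28.9 and 43.4 against 18.4, 0 and 0. Reads of the pair may be divided differently between libraries, so both values are uncertain. Ceacam2, an adhesion molecule with the close paralog Ceacam1, stood at 15.4, 15.2 and 10.3 in the controls and was listed at 0 in the competent libraries (limma adjusted p = 0.0078). Mmp19, a matrix metalloproteinase, stood at 12.8, 10.8 and 8.31 against 0 (limma adjusted p = 0.012). Fabp3, a fatty acid binding protein, stood at 4.81, 4.65 and 5.41 against 0 (limma adjusted p = 0.036), and the zinc finger gene Zfp87, which overlaps Zfp58 on the same strand, at 6.15, 6.36 and 5.73 against 0 (limma adjusted p = 0.019). The number of calls rested on single libraries: without control library 1, 2 or 3, limma called 12, 11 or 11 genes higher and 10, 15 or 24 lower, and without competent library 1, 2 or 3, 11, 4 or 5 higher and 17, 9 or 11 lower.

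**Figure D5:**
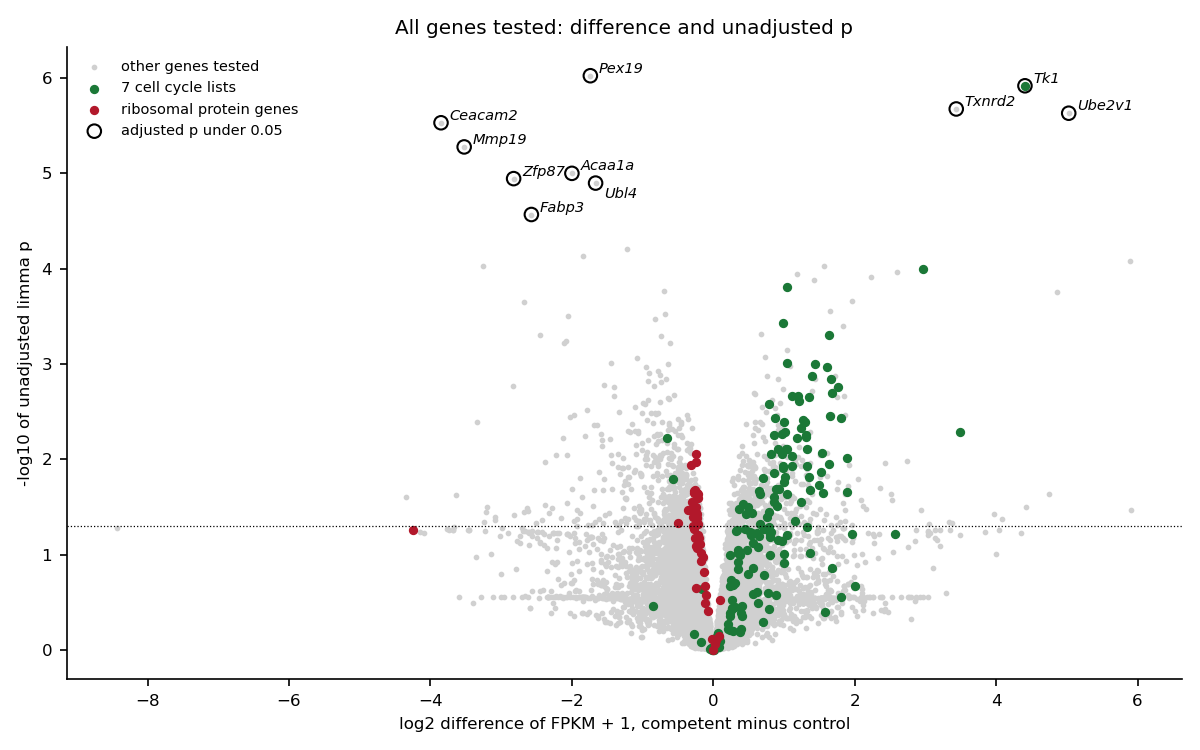
Log2 difference of FPKM + 1, competent minus control (horizontal axis), against -log10 of the unadjusted limma p (vertical axis) for 13199 genes, with the cell cycle lists in green, ribosomal protein genes in red, the 10 genes past the adjusted threshold circled and an unadjusted p of 0.05 as a dotted line. Cell cycle genes lie mostly to the right, with 73 above the dotted line, and ribosomal protein genes just left of 0, with 21 above it.

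Some other genes kept the groups apart in every library without passing the adjusted threshold. Abp1, the diamine oxidase that degrades histamine and putrescine, stood at 14.9, 12.7 and 13.6 FPKM in the controls and 35.7, 47.0 and 33.7 in the competent libraries (1.42 ± 0.16, limma adjusted p = 0.088), and exon coverage was 12.3 ± 0.57 and 33.1 ± 6.15. Alpl, tissue-nonspecific alkaline phosphatase, stood at 11, 8.25 and 11.7 against 27.1, 42.5 and 35.1 (1.65 ± 0.21, limma adjusted p = 0.14). Cbx6, a Polycomb protein, stood at 29.7, 32.1 and 29.9 against 47.2, 48.3 and 52.8, and Pmepa1, an inhibitor of TGF-beta signalling, at 16.7, 19.9 and 24.5 against 46.3, 40.1 and 41.5. In these 4 genes the groups do not overlap. In Pmepa1, however, the higher FPKM lies in ENSMUST00000139306, listed at 0 in the controls and at 28.9, 24.8 and 24.6 in the competent libraries, and the exon coverage difference was 0.62 against 1.04.
Lower genes of this kind included Srgn, the proteoglycan of leukocyte granules, at 172, 134 and 139 against 63.1, 65 and 60.6 (-1.22 ± 0.12, limma adjusted p = 0.075), with exon coverage of 53.1 ± 7.53 and 23.2 ± 0.96. Igfbp7, a secreted binding protein of insulin-like growth factors, stood at 360, 340 and 376 against 225, 231 and 207 (-0.70 ± 0.08, limma adjusted p = 0.10). Lgals1, the lectin galectin-1, stood at 902, 784 and 886 against 556, 501 and 550, but its exon coverage was 857 ± 64.0 and 912 ± 392. The remaining 3 genes of smallest p, Tmem188, Chrac1 and Gps1, had differences of -0.82, -0.74 and -0.61. Each has transcripts listed at 0 in every competent library, such as ENSMUST00000134353 of Chrac1, at 33.1, 23.6 and 30 in the controls. Their exon coverage differences were -0.14, -0.47 and -0.36.

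Genes that estradiol raises in the uterus were mostly higher after competent embryo medium. Of 32 tested, 22 had higher means, 12 of them at an unadjusted p under 0.05 against 1 lower, with a median of 0.35. The list shares Mcm2 and Ccnd1 with the cell cycle lists. Lcn2, the iron-scavenging lipocalin of uterine epithelium, stood at 2614, 2002 and 2419 FPKM in the controls and 3635, 3904 and 4050 in the competent libraries (0.73 ± 0.12, limma adjusted p = 0.28). Complement C3 stood at 1572, 1594 and 2002 against 2695, 2123 and 2449 (0.49 ± 0.14, limma adjusted p = 0.54). Both are secreted by the epithelium, and neither overlapped between groups. Ltf, lactoferrin, stood at 2528, 2262 and 1761 against 3431, 3350 and 2575. Inhbb, the activin beta B subunit, stood at 6.62, 15.4 and 17.7 against 28.7, 26.9 and 30.2, and Igf1, the growth factor of uterine stroma, at 13.4, 14.8 and 13 against 16.5, 31.6 and 29.8. Of the 10 lower members only Wnt11 was at that level on FPKM, at 16.1, 15.7 and 8.04 in the controls and 6.68, 1.60 and 3.46 in the competent libraries (-1.62 ± 0.47). By exon coverage Vegfa and Cyp26a1 were also lower at that level, with differences of -0.88 and -0.79. Leaving out a library left 7 to 9 higher members at an unadjusted p under 0.05, the fewest without competent library 3, and a fit of all 9 libraries left 4.

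The receptors could not be read from FPKM. Esr1, the estrogen receptor, was listed at 0 in the 6 libraries while its exon coverage was 37.7 in the controls and 35.7 in the competent group. Pgr, the progesterone receptor, was listed at 0, 0 and 19.1 against 19.5, 0 and 23.7, with exon coverage of 66.7 and 52.5. The 10 receptor and coregulator genes tested had a median of 0.28 on FPKM and of 0.03 by exon coverage. Of 18 progesterone-responsive genes 7 were higher, none at an unadjusted p under 0.05, and 3 were lower at that level, with a median of -0.10. By exon coverage the direction turned, with 10 of 18 higher, a median of 0.05, and 2 higher and 4 lower at that level. Hoxa11, a homeobox gene of uterine stroma needed for implantation, stood at 33.5, 39.2 and 39.4 in the controls and 19.2, 20.9 and 24.1 in the competent libraries (-0.78 ± 0.13, limma adjusted p = 0.32). Tsc22d3, a target of progesterone and glucocorticoids, stood at 60.6, 64.6 and 57.0 against 45.6, 43.9 and 38.6. The third, the Hedgehog effector Gli1, stood at 4.07, 7.25 and 2.68 against 1.22, 0 and 1.73.

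Implantation and embryo signalling genes showed few differences. Of 36 tested, 20 were higher, with 1 higher and 1 lower at an unadjusted p under 0.05 and a median of 0.04. Lif, the cytokine that implantation in mice requires, overlapped at 1.01, 2.32 and 0.72 FPKM against 2.25, 1.01 and 2.27. Hbegf, a growth factor of the implantation site, stood at 10.3, 8.21 and 10.1 against 9.81, 8.53 and 5.82. Ptgs2, the inducible cyclooxygenase, and Scnn1a, a subunit of the epithelial sodium channel, were below the filter, with means of 0.55 and 0.65 FPKM for Ptgs2 and 1.00 and 0.71 for Scnn1a. Sgk1, a kinase that regulates that channel, stood at 97.2, 89.7 and 51.0 against 21.7, 22.1 and 41.0 (-1.46 ± 0.35, limma adjusted p = 0.48), but its exon coverage was 14.4 and 11.1.
Unfolded protein response genes split evenly, with 20 of 36 higher and a median of 0.05 (-0.02 without control library 3). At an unadjusted p under 0.05 stood 1 higher gene, Manf, and 3 lower genes, Asns, Ddit3 and Xbp1. Ddit3, the stress factor CHOP, stood at 19.3, 17.4 and 29.3 against 14, 14.1 and 13.9. Hspa5, the chaperone BiP, overlapped at 406, 338 and 326 against 391, 190 and 301, as did Hspa8, a cytosolic chaperone, with a difference of -0.27 ± 0.15.

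Arg1, the arginase that feeds polyamine synthesis, stood at 24.4, 27.1 and 27.3 FPKM in the controls and 16.7, 69.9 and 86.3 in the competent libraries (0.81 ± 0.61, limma adjusted p = 0.78). Competent library 1 lay below the controls on FPKM, so the groups overlapped. By exon coverage the means were 26.3 and 68.9 without overlap. Of 15 arginine and polyamine genes 12 were higher, with a median of 0.18 (0.09 without control library 3), and Abp1 was the 1 at an unadjusted p under 0.05.

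Ribosomal protein genes were slightly lower after competent embryo medium. Of 44, 40 were lower, 21 at an unadjusted p under 0.05 (4.39% of all genes) and 27 without overlap of the groups (8.18%), with a median of -0.23 and an adjusted p of at least 0.53. Rps24 stood at 5575, 5274 and 5115 FPKM in the controls and 4431, 4444 and 4567 in the competent libraries (-0.25 ± 0.06, limma adjusted p = 0.53). Rpl5 stood at 867, 803 and 791 against 725, 706 and 685. The lowest difference of the list was that of Rpl7a (-4.24, listed at 0 in the competent libraries), and the 4 higher members reached at most 0.10. Despite its size, the difference of Rpl7a did not pass the adjusted threshold either. Many ribosomal protein genes have near-identical pseudogenes, so reads may be shared between copies. The count of 21 depended on the fit: it was 1 without the mean trend, 2 in a fit of all 9 libraries, 7 without a filter and 2 after quantile normalization, which brought the median to -0.09. Leaving out control library 1, 2 or 3 gave 3, 18 or 15. Without competent library 1, 2 or 3 there were 8, 7 or 8.

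Markers of the cell types of the uterus were checked as well. Epithelial markers were present and alike in summed FPKM, 3192 to 3954 in the controls and 3473 to 3888 in the competent libraries, with 8 of 15 higher and none at an unadjusted p under 0.05. Stromal fibroblast markers were lower in 9 of 12, with a median of -0.46 and sums of 1942 to 2329 and 1557 to 2248. Without control library 3 the median was -0.23. They did not move as 1 block. The collagens Col1a1 (111, 138 and 152 against 178, 207 and 331 FPKM) and Col1a2 were higher, whereas Dcn, the proteoglycan decorin (943, 838 and 928 against 657, 523 and 687), and Hoxa11 were lower. Of 12 endothelial markers 5 were higher, with a median of -0.19 that became -0.05 without control library 3 or competent library 1 and 0.00 by exon coverage.
All 6 dendritic cell and antigen presentation markers tested were lower, 3 at an unadjusted p under 0.05, with a median of -0.49 and sums of 199 to 317 and 167 to 172 FPKM. Cd83, carried by mature dendritic cells, stood at 3.00, 3.21 and 3.60 against 1.39, 1.01 and 1.27 (-0.94 ± 0.20, limma adjusted p = 0.44). The class II gene H2-Aa stood at 157, 91.8 and 138 against 69.8, 78.2 and 60.5. Of 9 T and NK cell markers 7 were lower, with a median of -0.45 (-0.22 without control library 3 and -0.78 without control library 2), among them the granule protease Gzmb, at 9.03, 4.09 and 8.59 against 3.02, 2.06 and 1.40. Of 10 macrophage markers 8 were lower, with a median of -0.33 (-0.12 without control library 3, and -0.57 with 5 lower at an unadjusted p under 0.05 without control library 2). Itgam was higher, at 12.8, 12.3 and 3.92 against 19.0, 23.0 and 20.3. The part of leukocyte content in the difference of Srgn was not tested.
Globin and other erythrocyte genes varied with the library, with sums of 937, 989 and 1501 FPKM in the controls and 3968, 2478 and 748 in the competent libraries. Adipocyte markers summed to 119, 58.4 and 7.90 against 3.79, 182 and 65.6, and the 6 mesothelial markers had higher means with overlapping groups. Ovgp1, of the oviduct, was listed at 0 in the 6 libraries, and none of 5 eosinophil markers passed the filter.

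Matrix and WNT genes held further members whose groups did not overlap. Of the matrix genes 7 were higher (17.5%) and 5 lower (12.5%) without overlap, against 6.84% and 8.18% of all genes. Of the WNT genes 2 were higher (6.06%), under the share of all genes, and 6 were lower (18.2%). Of 40 matrix genes 25 were higher, with 8 higher and 3 lower at an unadjusted p under 0.05 and a median of 0.27. This count rested on single libraries, with 3 higher members and a median of 0.16, 0.05 or 0.01 without control library 1, control library 2 or competent library 3. Eln, the elastin precursor, stood at 3.52, 2.93 and 5.23 FPKM against 10.6, 15.6 and 26.1 (1.85 ± 0.36, limma adjusted p = 0.38), and exon coverage was 18.0 and 51.5. The basement membrane collagen Col4a1 stood at 12.9, 16.8 and 18.5 against 23.5, 29.0 and 50.5, while Nid1, which links that membrane, stood at 37.0, 32.1 and 39.6 against 24.5, 26.6 and 24.7. Of 33 WNT pathway genes 16 were higher, with 1 higher and 5 lower at an unadjusted p under 0.05 (0 and 3 without control library 1, by limma). Besides Wnt11 the lower ones were Sfrp2 and Sfrp4, secreted proteins that bind WNT, Dkk3, a secreted protein of the Dickkopf family, and Nkd2, an intracellular antagonist. Sfrp2 stood at 17.1, 20.3 and 26.1 against 12.3, 12.5 and 11.1 (-0.76 ± 0.18), Sfrp4 at 26.5, 22.3 and 26.2 against 11.8, 17.5 and 15.5 (-0.72 ± 0.17), and Dkk3 at 13, 13 and 21.6 against 8.88, 6.78 and 4.89 (-1.10 ± 0.28).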

How the data were processed

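RNA of flash-frozen uterus was sequenced by the submitters (TruSeq libraries from 1 µg of RNA, per the labels' protocols). The submitters' processing notes name Bowtie 0.12.2, Cufflinks and the build mm9, with no Cufflinks version. The deposited FPKM values and the deposited coverage signal (mean read depth over a transcript, not divided by library size) are the authors', per the file headers; control library 1 has no header and was read in the column order of the others. The labels put 3 libraries in each group.

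Gene sums were made with Python 3.11.15, pandas 2.3.3 and numpy 2.4.6, over the annotated transcripts of a gene, without rescaling. Genes of mean FPKM of at least 1 over the 6 libraries were tested, two-sided, on log2(FPKM + 1) in R 4.3.3 with limma 3.58.1 (empirical Bayes, variance trended on the mean, no block, 5.845 degrees of freedom in total, with a prior of 1.845) and Benjamini-Hochberg adjustment over 13199 genes. The procedure was tested on simulated data. FPKM and its coverage limit precision, since depth in reads is unknown and 3 libraries per group estimate the spread poorly.

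The members, the 40 gene lists (18 of cell type markers), the tests and the naming rule were chosen with earlier results of these data known. Named genes were, per direction, up to 10 called genes of largest difference without overlap and with no library at 0, the places left being filled by smallest unadjusted p; up to 10 members of smallest p of each cell cycle list and 6 of other lists; a set of genes whatever their p; and called genes with a library at 0. Genes with a Gm number, Rik or clone name were not named. Genes named outside this rule (in complexes, and as exceptions) were chosen after their values were seen. Promoter stretches were read from the mm9 genome. Alternatives were the pseudocount, the filter, the normalization, the way a gene value is made, the fit, and leaving out each library.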

Additional observations from a re-analysis of the deposited data

How the results depend on the processing

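None of the 10 called genes reversed under the alternatives run, while several list medians changed sign. Without control library 3 those of the anaphase, cholesterol, immediate early, unfolded protein response, glycolysis, WNT, epithelial, mast cell and adipocyte lists did. By exon coverage those of the progesterone-responsive, receptor, glycolysis and endothelial lists did. Other alternatives changed the sign for the interferon, implantation, WNT, epithelial and some marker lists of under 6 genes. Of the 3 genes called higher by limma in the reported fit, the count became 5 with a pseudocount of 0.25, 7 without a filter, 7 with only the transcript of highest mean, 8 with assembled transcripts added, 7 without the mean trend and 0 when genes with a library at 0 were left out (489 at an unadjusted p under 0.05). The 7 called lower became 3 at a mean of at least 5 FPKM, 3 without genes listed at 0, 11 with only the transcript of highest mean, 13 with assembled transcripts and 4 in a fit of all 9 libraries. Leaving out each library in turn gave 4 to 12 higher and 9 to 24 lower. Pex19 kept its call in 16 of 19 alternatives, Acaa1a in 12 and Ubl4 in 13. The labels do not say whether the replicate numbers pair the samples. Deviations from the group means of same-numbered control and competent libraries correlated at 0.0115, 0.0942 and 0.0453. Those of differently numbered libraries correlated at -0.0761 to 0.0328. A replicate block called 0 higher and 0 lower genes by limma (437 and 518 at an unadjusted p under 0.05). The causes were not tested.

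With pseudocounts of 0.25 and 5 the median of the 7 cell cycle lists together was 1.03 and 0.40, that of the mitotic kinases 1.32 and 0.53, and that of the spindle genes 1.34 and 0.58. At a pseudocount of 5 the cyclin list had 0.35 and the kinetochore list 0.55. The mitotic kinase median was 1.40 at a mean of at least 5 FPKM (7 genes). The anaphase median was 0.055 with only the transcript of highest mean. The estradiol median was 0.47 at a mean of at least 5 FPKM, 0.27 with assembled transcripts and 0.28 by exon coverage, and the ribosomal protein median was -0.093 after quantile normalization. Leaving out each library gave medians of 0.45 to 0.75 for cyclins, -0.028 to 0.55 for anaphase genes and 0.26 to 0.41 for estradiol-responsive genes.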

Other observations

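Interferon and chemokine lists held few members whose groups did not overlap, 3 higher and 1 lower of 34 and 1 of each of 25, which is near or under the shares of all genes (6.84% and 8.18%). Of 34 interferon response genes 24 were higher, with a median of 0.09 and 1 gene at an unadjusted p under 0.05 in each direction. These values rest on control library 3: without it 30 of 34 were higher, 8 at that level, with a median of 0.44, and without control library 1 or 2 the median was 0.01 or -0.02. Cxcl10, the interferon-induced chemokine that draws T cells, stood at 27.7, 23.2 and 55.1 FPKM in the controls and 4.18, 6.84 and 18.0 in the competent libraries (-1.89 ± 0.56, limma adjusted p = 0.56). Oasl1, an antiviral factor, stood at 21.7, 23.4 and 18.8 against 32.5, 26.2 and 27.2. The groups do not overlap in either gene, and the directions are opposite. Of 25 chemokine and cytokine genes 9 were higher, with 1 higher and 4 lower at an unadjusted p under 0.05 and a median of -0.07. Ccl11, the eosinophil chemokine eotaxin that estradiol regulates in the uterus, stood at 46.6, 39.3 and 33.3 against 23.4, 19.0 and 19.0 (-0.92 ± 0.16, limma adjusted p = 0.34), while none of the 5 eosinophil markers passed the filter in these libraries. Csf1, the growth factor of macrophages, was the higher one, at 2.92, 4.2 and 4.07 against 6.07, 5.31 and 6.68.

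Metabolic and early response lists held few differences. Of 26 cholesterol and fatty acid synthesis genes 17 were higher, with a median of 0.16 that became -0.03, with 10 higher, without control library 3 and 0.04 without competent library 2. Scd1, the stearoyl-CoA desaturase, was listed at 6.42, 6.16 and 6.99 FPKM in the controls and 4.72, 0 and 0 in the competent libraries, and Srebf2, the sterol-sensing transcription factor, stood at 13.3, 13.7 and 10.3 against 14.6, 22.4 and 21.1. Of 19 glycolysis genes 8 were higher, with a median of -0.07 that lay between -0.08 and 0.07 when single libraries were left out and was 0.12 by exon coverage. Ldhb, a lactate dehydrogenase subunit, was the 1 at an unadjusted p under 0.05, at 80.5, 80.0 and 88.5 against 73.9, 65.7 and 60.9. Of 26 immediate early genes 10 were higher, with a median of -0.09 (0.01 without control library 3), and only Fosl2, an AP-1 subunit, reached an unadjusted p under 0.05, at 10.1, 28.2 and 21.5 against 37.1, 36.0 and 35.4.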
